A study of Homo sapiens with 12 samples.

Results

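The 10 ERK feedback genes DUSP4, DUSP5, DUSP6, SPRY1, SPRY2, SPRY4, SPRED1, SPRED2, ETV4 and ETV5 were described in the human colorectal cancer line HCT116. They were taken by name from the authors' deposited tables, and all 10 of 10 were among the 12756 genes listed there. The tables come from polyadenylated RNA of 12 libraries in 4 groups of 3, harvested at 48 h after seeding. The groups were HCT116 cells lacking both ANKRD52 and CSNK1A1 (the double knockout), cells lacking ANKRD52 alone, cells lacking AGO2, and the parental line. ANKRD52 is a regulatory subunit of the phosphatase PP6, CSNK1A1 is casein kinase 1 alpha, and AGO2 is an Argonaute, the protein through which microRNAs silence messages. The double knockout shares the loss of ANKRD52 with the single one, and no library of CSNK1A1 loss alone was analysed here. The labels name neither clones nor the number of them, so a knockout group may be 1 clone.

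ERK is the last kinase of the RAS, RAF and MEK cascade that growth factor receptors switch on. Active ERK induces the genes of its own inhibitors, and their transcripts are commonly read as a measure of the output of the pathway. DUSP4 and DUSP5 are nuclear phosphatases and DUSP6 is a cytoplasmic one that remove the activating phosphates from ERK. Sprouty proteins (SPRY1, SPRY2 and SPRY4) act upstream, between receptors and RAF. SPRED1 and SPRED2 bring the RAS inactivator NF1 to the membrane. ETV4 and ETV5 are ETS transcription factors that are induced by ERK and carry its signal to further genes.

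All values rest on 3 tables of the authors' edgeR tests, 1 for each knockout over the parental line. A gene was called where the authors' adjusted p was under 0.05. Depths and values of single libraries were not used here, so each group level in CPM, counts scaled to library size, was implied from the mean level and the 3 fold changes, as if the 4 groups were of equal size. Standard errors and intervals were rebuilt from the likelihood ratios and are approximate. The labels do not say whether the 3 replicates were separate cultures, so every p measures the spread among these libraries alone, and that spread may be technical. In RNA of whole cultures, a change in every cell and a changed share of cells cannot be told apart. The transcripts of the targeted genes were checked first. In the authors' deposited table CSNK1A1 had a log2 fold change of -2.42 in the double knockout (adjusted p = 1.71e-10). ANKRD52 had -0.65 in the double (adjusted p = 2.32e-05) and 0.03 in the ANKRD52 knockout (adjusted p = 0.915) in the authors' deposited tables, and AGO2 had -1.07 in the AGO2 knockout (adjusted p = 0.0477). ANKRD52 was higher in the AGO2 knockout than in the parental line, at 0.85 (adjusted p = 8.78e-07) in the authors' deposited table. The labels do not give the kind of mutation, so the level of the ANKRD52 transcript is no check of the label of the ANKRD52 knockout.

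More feedback genes, and more of all genes, were called in the double knockout than in the single ones. There SPRY1, DUSP6, ETV4, DUSP4 and SPRY2 rose and the other 5 were not called. In that knockout 5 of 10 were called higher and 0 lower, where 22.9% of all genes were called higher and 20.1% lower. In the ANKRD52 knockout DUSP4 and SPRED2 rose and SPRY1 fell, which is 2 of 10 higher and 1 lower, against 7.62% of all genes called higher and 6.04% lower. In the AGO2 knockout 1 of 10 was called higher, DUSP4, and 0 lower, against 3.38% and 2.72% of all genes. That 1 gene was also the single member with an edgeR p under 0.05 before adjustment, which 2735 of all 12756 genes had. The median log2 fold change over the 10 genes was 0.42 in the double, 0.19 in the ANKRD52 knockout and -0.04 in the AGO2 knockout, where the medians of all genes were 0.01, 0.00 and 0.00.

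**Figure D1:**
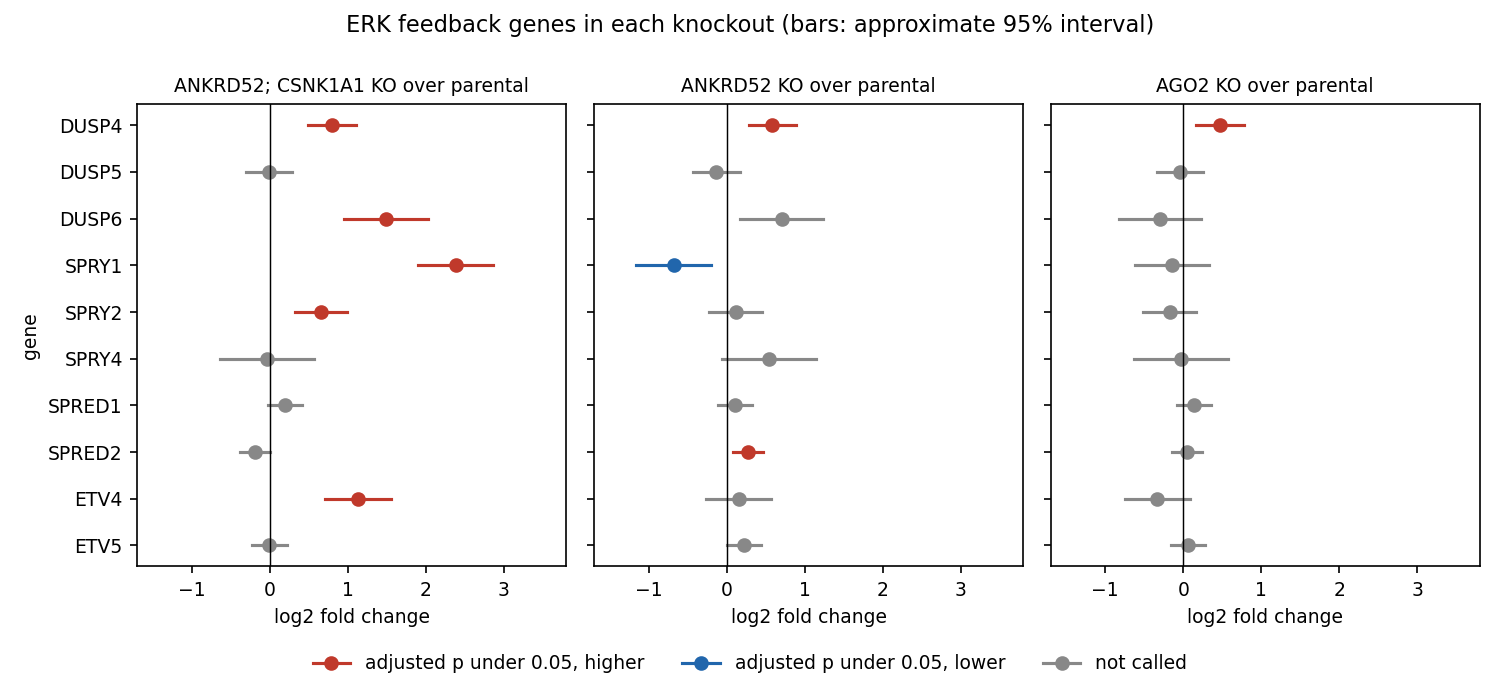
Log2 fold change of each ERK feedback gene over the parental line in the ANKRD52; CSNK1A1, ANKRD52 and AGO2 knockouts, with points for the authors' values and bars for approximate 95% intervals. SPRY1 lies farthest from 0 at 2.38 in the double knockout and below 0 at -0.68 in the ANKRD52 knockout, and DUSP4 lies above 0 in each panel.

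SPRY1 showed the widest range of all 10 genes. Its implied level was 31.0 CPM in the double knockout, 3.73 CPM in the ANKRD52 knockout and 5.40 CPM in the AGO2 knockout, against 5.96 CPM in the parental line. The double knockout stood above the other groups, and the ANKRD52 knockout was lowest. In the authors' deposited table the log2 fold change in the double was 2.38 (adjusted p = 1.87e-20), a 5.20-fold rise, which few of all genes exceeded. The rebuilt interval ran from 3.73-fold to 7.26-fold. SPRY1 fell in the ANKRD52 knockout, with a log2 fold change of -0.68 in the authors' deposited table (adjusted p = 0.0454). Its rebuilt interval was -1.16 to -0.19. The double thus carried 8.31 times the SPRY1 transcript of the ANKRD52 knockout, a log2 difference of 3.05 with an approximate SE of 0.25 (adjusted p = 3.54e-33 in a normal test across all genes). The AGO2 knockout was not told from the parental line, at -0.14 in the authors' deposited table (adjusted p = 0.785). The fall in the ANKRD52 knockout rests on a margin near the threshold. Its adjusted p was 0.191 with an F distribution in place of the chi-square one. That setting called only 3 of all 12756 genes in this knockout, so the loss of the call is not particular to SPRY1.

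SPRY1 lies at chr4:123396795-123403760 on the plus strand (GRCh38, GENCODE release 29), and no other annotated gene overlaps it. The first of its 2 windows, at the 5' end of the annotated gene, is shown because SPRY1 moved most, followed by that of DUSP6, the gene with the next largest rise. Each runs from 250 bases before to 50 bases after a RefSeq start of transcription (GRCh38.p14), at chr4:123396545-123396844 on the plus strand and chr12:89352452-89352751 on the minus strand. Neither holds a match to the motifs searched, so no base is in capitals. The second SPRY1 window, at chr4:123398136-123398435, holds no match either and is not shown.
SPRY1 promoter: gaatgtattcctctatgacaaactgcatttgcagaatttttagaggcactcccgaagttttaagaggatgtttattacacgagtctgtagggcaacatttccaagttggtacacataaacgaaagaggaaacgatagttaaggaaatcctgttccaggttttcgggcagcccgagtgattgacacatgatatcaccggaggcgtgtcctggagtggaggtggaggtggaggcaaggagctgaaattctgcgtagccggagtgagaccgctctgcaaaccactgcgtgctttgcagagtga
DUSP6 promoter: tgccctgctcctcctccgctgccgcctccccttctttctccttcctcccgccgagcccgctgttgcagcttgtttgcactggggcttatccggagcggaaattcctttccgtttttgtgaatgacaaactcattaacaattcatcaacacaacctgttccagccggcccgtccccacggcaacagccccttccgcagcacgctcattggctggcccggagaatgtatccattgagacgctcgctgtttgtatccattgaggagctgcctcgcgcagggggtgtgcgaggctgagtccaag

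The motifs were the ETS-type site CCGGAAGT, its core GGAAGT, the AP-1 site TGANTCA and the CArG box of the serum response element, each on both strands. The core lies within the longer ETS form, so a match to the longer form is counted under both. Windows were given for 6 of the 10 genes, 10 windows in all. Of 13755 windows of the same length over 9319 listed genes, 7.15% held CCGGAAGT, 25.7% the core, 5.21% the AP-1 site and 1.05% the CArG box. Among the 10 windows of the feedback genes, 1 of SPRY2 held 1 match to the core and 1 of SPRED2 held 2 to AP-1. The other windows held none. These counts describe letters in a window and carry no test.

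SPRY2 rose in the double knockout, by less than SPRY1. The implied SPRY2 level was 14.4 CPM in the double, 9.91 CPM in the ANKRD52 knockout and 8.11 CPM in the AGO2 knockout, against 9.14 CPM in the parental line. The double was highest and the other groups lay close together. The authors' deposited table gives a log2 fold change of 0.65 in the double (adjusted p = 0.000620), a 1.57-fold rise, with a rebuilt log2 interval of 0.32 to 0.99. The values in the ANKRD52 and AGO2 knockouts were 0.12 (adjusted p = 0.724) and -0.17 (adjusted p = 0.609) in the authors' deposited tables. SPRY2 lies at chr13:80335976-80340951 on the minus strand (GRCh38).

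SPRY4, a gene often counted among direct ERK outputs, was not called in any knockout. Its implied level was 115 CPM in the double, 172 CPM in the ANKRD52 knockout and 115 CPM in the AGO2 knockout, against 118 CPM in the parental line. The ANKRD52 knockout was highest, and the other groups were nearly level. The log2 fold changes were -0.04 (adjusted p = 0.933), 0.55 (adjusted p = 0.243) and -0.03 (adjusted p = 0.975) in the double, ANKRD52 and AGO2 tables deposited by the authors. The rebuilt interval in the double, -0.64 to 0.56, leaves out a rise of the size of DUSP6 or ETV4, but falls and rises of up to about 0.5 on the log2 scale were not detectable. SPRY4 had the widest error of the 10 genes.

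A site for miR-21 is shown for SPRY1 and SPRY2, because the study knocks out the Argonaute protein and SPRY1 is a known miR-21 target, described in mouse heart fibroblasts. The mature microRNA (RefSeq, GRCh38.p14) has its seed, bases 2 to 8, in capitals. In each site, 30 bases of the 3' UTR in GENCODE release 29, capitals mark 8 bases, those that pair with the seed and the A that follows them. The SPRY1 site is at chr4:123402955-123402984 on the plus strand and the SPRY2 site at chr13:80336504-80336533 on the minus strand.
hsa-miR-21-5p: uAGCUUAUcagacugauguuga
SPRY1 site: taattgcttaaATAAGCTAtgtattaaatc
SPRY2 site: ccatgtattgcATAAGCTAaagcaacacag
A 3' UTR with this site was found in 2.69% of the 11247 listed genes with a 3' UTR. In the AGO2 knockout neither gene was called, with the negative values given above. SPRED1 held 2 sites for the miR-15/16 family, at chr15:38353567-38353596 and chr15:38353957-38353986 on the plus strand, and is shown as the feedback gene with most sites of 1 family.
hsa-miR-16-5p: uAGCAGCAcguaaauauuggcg
SPRED1 site 1: atatatttgaaTGCTGCTAcaacagatgat
SPRED1 site 2: tttaaccacttTGCTGCTAagattttgccg
The miR-15/16 site was found in 4.57% of the listed genes. Over the 18 families searched, DUSP6, SPRED2 and ETV4 held 0 sites. DUSP4 held 2, for miR-200bc and miR-23, in a 3' UTR of 3962 bases. SPRY2 held 3, adding miR-27 and miR-23 to miR-21, in a 3' UTR of 782 bases, against a median of 1189 bases over the listed genes. SPRED1 held sites for 2 families in 5585 bases. DUSP5 held sites for 2 families, miR-23 and miR-26, and ETV5 for 2, miR-17 and miR-19. SPRY1 held 1, for miR-21, and SPRY4 held 1, for miR-24. Among genes with a 3' UTR of like length, the median number of families with a site was 2 for DUSP4 and 3 for SPRED1. It was 1 for DUSP6, SPRED2 and ETV5, and 0 for DUSP5, SPRY1, SPRY2, SPRY4 and ETV4.

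DUSP6 rose in the double knockout and was the most abundant of the 10 transcripts. Its implied level was 896 CPM in the double, 522 CPM in the ANKRD52 knockout and 260 CPM in the AGO2 knockout, against 320 CPM in the parental line. The levels step down from the double to the ANKRD52 knockout and then to the parental line and the AGO2 knockout. In the authors' deposited table the log2 fold change in the double was 1.48 (adjusted p = 7.41e-07), a 2.80-fold rise, with a rebuilt interval of 1.93-fold to 4.07-fold. The ANKRD52 knockout had 0.71 in the authors' deposited table and missed the threshold (adjusted p = 0.0610), and the AGO2 knockout had -0.30 (adjusted p = 0.555). An annotated antisense transcript, AC024909.2, overlaps an exon of DUSP6 (chr12:89347232-89353271, minus strand, GRCh38). It is not listed in the tables, and the counting is not stated to use strand, so its reads cannot be told apart from those of DUSP6 here.

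DUSP4 was the 1 feedback gene called in all 3 knockouts. The DUSP4 level implied was 252 CPM in the double, 219 CPM in the ANKRD52 knockout and 202 CPM in the AGO2 knockout, against 146 CPM in the parental line. Each knockout lay above the parental line. The authors' deposited tables give log2 fold changes of 0.79 in the double (adjusted p = 3.28e-06), 0.59 in the ANKRD52 knockout (adjusted p = 0.00346) and 0.47 in the AGO2 knockout (adjusted p = 0.0432). The rise in the double was 1.73-fold. The rebuilt log2 intervals were 0.49 to 1.10, 0.28 to 0.89 and 0.17 to 0.78. The 3 comparisons share the parental libraries and are not independent. No pair of knockouts differed in DUSP4 past the threshold. The double minus the ANKRD52 knockout was 0.21 on the log2 scale (interval -0.10 to 0.51, adjusted p = 0.317) and minus the AGO2 knockout 0.32 (interval 0.02 to 0.63, adjusted p = 0.0826), both by the normal test across all genes. With an F distribution the adjusted p was 0.119 in the ANKRD52 knockout and 0.295 in the AGO2 knockout, so these calls depend on the reference distribution. So do nearly all calls in these knockouts, where that setting called 3 and 0 of all genes.

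DUSP5 was nearly level across the groups. It had 91.0 CPM in the double, 83.7 CPM in the ANKRD52 knockout and 88.7 CPM in the AGO2 knockout, against 91.6 CPM in the parental line. The highest group was 1.09 times the lowest. The rebuilt interval of the log2 fold change in the double was -0.31 to 0.29, which leaves out rises of the size seen for DUSP4 and DUSP6.

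ETV4 and ETV5, both ETS factors of the PEA3 subfamily, parted in the double knockout. ETV4 had an implied level of 103 CPM in the double, 52.5 CPM in the ANKRD52 knockout and 37.5 CPM in the AGO2 knockout, against 47.1 CPM in the parental line. The double was the highest group and the other levels lay near that of the parental line. Its log2 fold change in the double was 1.13 in the authors' deposited table (adjusted p = 1.25e-06), a 2.19-fold rise with a rebuilt interval of 1.64-fold to 2.92-fold. In the ANKRD52 and AGO2 knockouts it was 0.16 (adjusted p = 0.695) and -0.33 (adjusted p = 0.373) in the authors' deposited tables. ETV5 had 134 CPM in the double, 157 CPM in the ANKRD52 knockout and 140 CPM in the AGO2 knockout, against 135 CPM in the parental line. Those levels differ by 1.17-fold at most. ETV5 in the double was at -0.01 in the authors' deposited table (adjusted p = 0.969), with a rebuilt interval of -0.23 to 0.21 that does not meet that of ETV4, 0.71 to 1.55. In the ANKRD52 knockout ETV5 had 0.22 in the authors' deposited table (adjusted p = 0.187). ETV4 lies at chr17:43527844-43579620 on the minus strand (GRCh38) and overlaps the listed gene DHX8 on the other strand, outside its exons.

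SPRED2 moved in small steps with a small error. Implied levels were 116 CPM in the double, 159 CPM in the ANKRD52 knockout and 137 CPM in the AGO2 knockout, against 132 CPM in the parental line. The ANKRD52 knockout was highest and the double lowest. In the authors' deposited table SPRED2 rose in the ANKRD52 knockout by a log2 fold change of 0.27 (adjusted p = 0.0448), a 1.21-fold rise with a rebuilt interval of 1.06-fold to 1.38-fold. The double was at -0.19 (adjusted p = 0.109) and the AGO2 knockout at 0.05 (adjusted p = 0.817) in the authors' deposited tables. The call in the ANKRD52 knockout ended with an F distribution (adjusted p = 0.190), which called only 3 of all genes there. SPRED1 was not called in any knockout, with 82.1 CPM in the double, 77.6 CPM in the ANKRD52 knockout and 78.7 CPM in the AGO2 knockout, against 71.8 CPM in the parental line. Its log2 fold changes in the authors' deposited tables ran from 0.11 to 0.19, and its rebuilt intervals reached 0.41 at most. The SPRED2 window at chr2:65366729-65367028 on the minus strand (GRCh38.p14) is shown for its 2 AP-1 matches, in capitals. They begin at bases 245 and 285 of the window, and the first runs to base 251, the start of transcription. This start lies inside the annotated gene (chr2:65310851-65432637, GRCh38). The other SPRED2 window, at chr2:65432550-65432849 by the 5' end of the gene, holds no match and is not shown.
SPRED2 promoter: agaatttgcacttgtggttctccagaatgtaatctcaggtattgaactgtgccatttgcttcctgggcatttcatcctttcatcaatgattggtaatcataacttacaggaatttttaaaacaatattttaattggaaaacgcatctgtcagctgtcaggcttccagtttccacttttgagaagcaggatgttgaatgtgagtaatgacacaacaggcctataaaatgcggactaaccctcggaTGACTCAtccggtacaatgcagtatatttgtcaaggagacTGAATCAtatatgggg

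**Figure D2:**
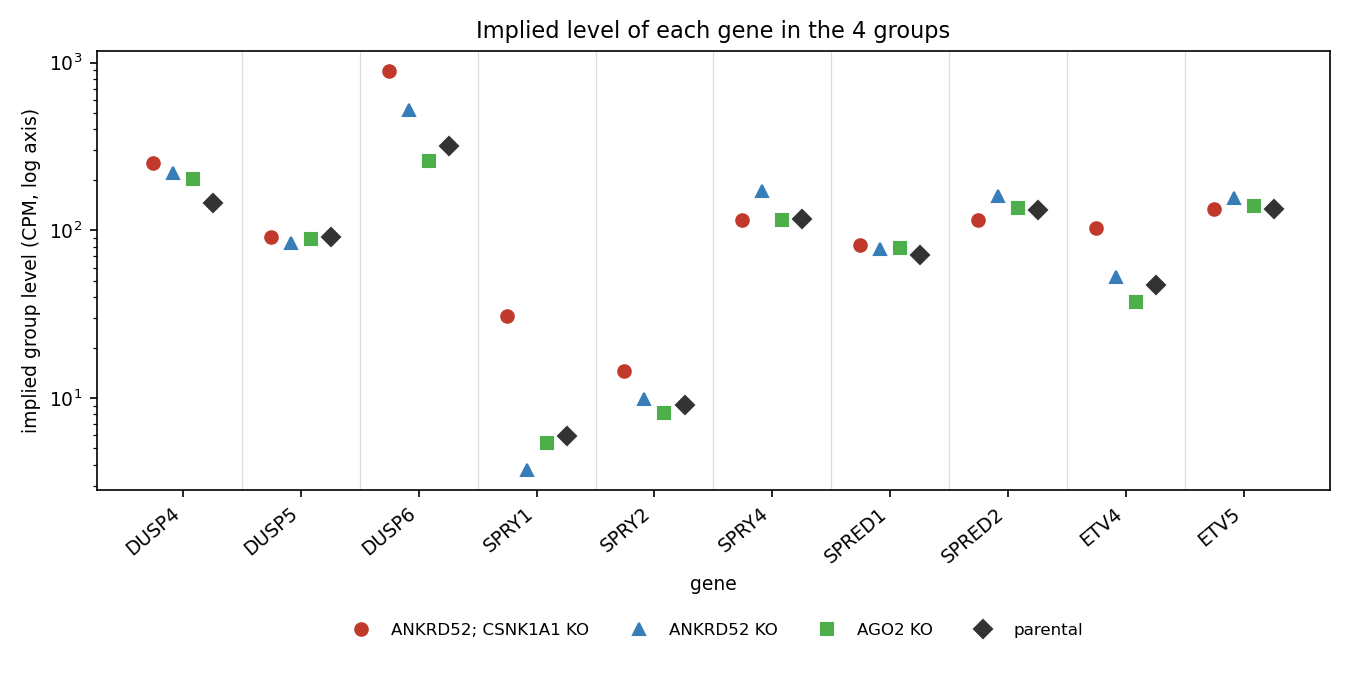
Implied level in CPM of each gene in the ANKRD52; CSNK1A1, ANKRD52 and AGO2 knockouts and the parental line, on a log axis and without error bars, since values of single libraries were not used. SPRY1 spans 8.31-fold from its lowest to its highest group and DUSP5 1.09-fold.

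Levels were compared between genes per kilobase of merged annotated exons. The transcripts in use may be shorter than that length, so the order between genes is approximate. In the double knockout DUSP6 stood at 197 CPM per kilobase, ETV4 at 36.8 and SPRY1 at 10.3, against 70.5, 16.8 and 1.97 in the parental line. On that scale DUSP6 was the highest of the 10 genes in the double and in the parental line. SPRY1 was the lowest of the 10 in the parental line, and in the double SPRY2 was lowest at 4.74. The level of each gene was also ordered across groups. For DUSP5, SPRY4, SPRED1, SPRED2 and ETV5 no neighbours in that order differed past the threshold, with adjusted p values between 0.109 and 0.980, although SPRED2 differed between its highest and lowest groups. For SPRY1, SPRY2, ETV4 and DUSP6 the step from the double to the next group passed it, and for DUSP4 the step from the AGO2 knockout to the parental line.

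The knockouts were then compared with each other, to ask which feedback genes set the double knockout apart from the loss of ANKRD52 alone. SPRY1, ETV4, DUSP6 and SPRY2 were higher and SPRED2 lower in the double than in the ANKRD52 knockout. That is 4 of 10 higher and 1 lower, against 18.5% of all genes called higher and 15.7% lower in the same normal test. ETV4 was higher by 0.97 on the log2 scale, with an approximate SE of 0.21 (adjusted p = 4.11e-05). DUSP6 was higher by 0.78 (SE 0.27, adjusted p = 0.0161) and SPRY2 by 0.54 (SE 0.17, adjusted p = 0.00736). SPRED2 differed by -0.46 (SE 0.10, adjusted p = 2.89e-05) and was the 1 feedback gene called lower in the double. SPRY4 differed by -0.58 (SE 0.31, adjusted p = 0.131) and ETV5 by -0.23 (SE 0.11, adjusted p = 0.104), which missed the threshold. DUSP6 and SPRY2 were no longer called with a t distribution (adjusted p = 0.0802 and 0.0605).

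Set against the AGO2 knockout, the double was higher in the same 4 genes and lower in SPRED2. The share of all genes called there was 22.3% higher and 20.0% lower. SPRY1 was higher by 2.52 (SE 0.24, adjusted p = 3.93e-23), DUSP6 by 1.78 (SE 0.27, adjusted p = 1.11e-09), ETV4 by 1.46 (SE 0.21, adjusted p = 1.41e-10) and SPRY2 by 0.83 (SE 0.17, adjusted p = 1.22e-05). SPRED2 differed by -0.24 (SE 0.10, adjusted p = 0.0384), which was 0.104 with a t distribution. Both sets of differences use the same double knockout libraries. Between the ANKRD52 and AGO2 knockouts 1 of 10 was called higher, DUSP6, by 1.004 (SE 0.27, adjusted p = 0.00581), and 0 lower, where 5.58% of all genes were called higher and 3.75% lower. Before adjustment 4 of the 10 had a p under 0.05 in that normal test, as had 2956 of all 12752 genes tested. The DUSP6 call ended with a t distribution (adjusted p = 0.169), which called 0 of all genes between these knockouts.

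**Figure D3:**
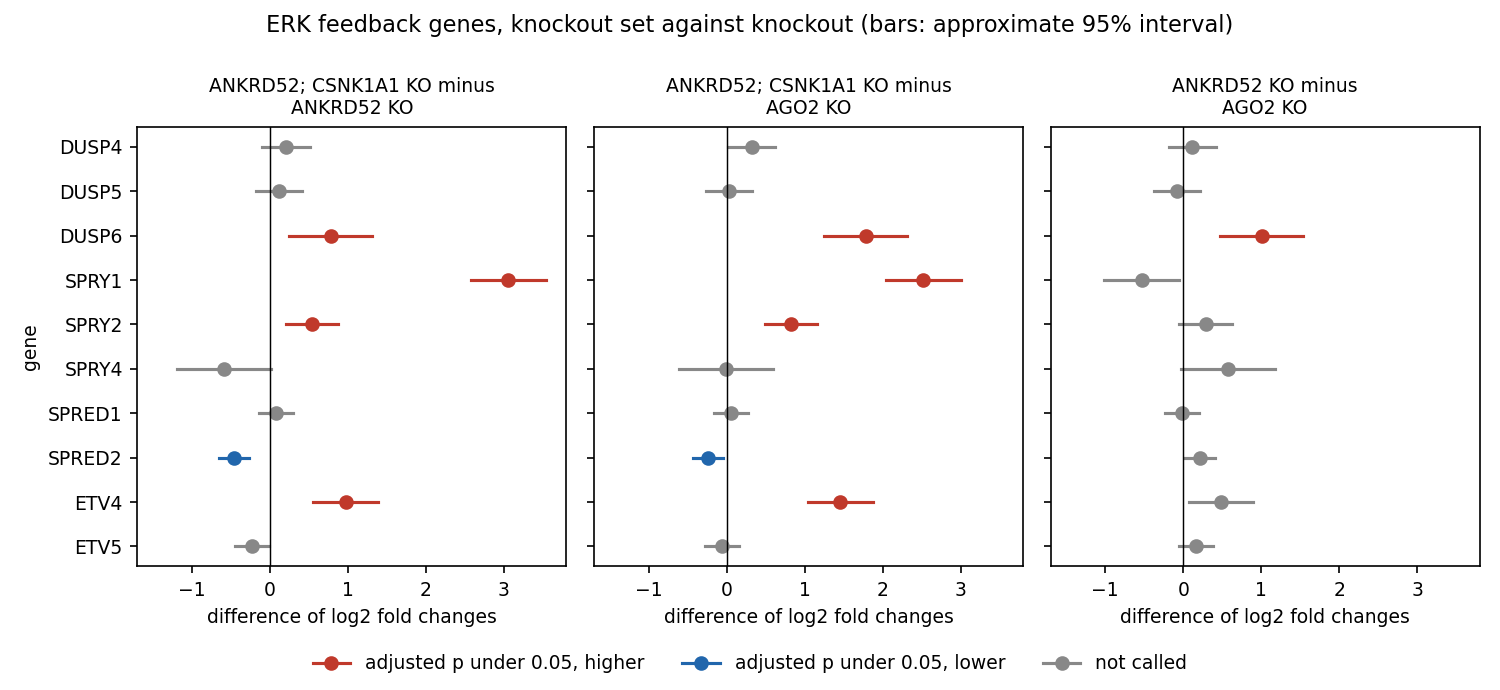
Difference of log2 fold changes between knockouts for each ERK feedback gene, with bars for approximate 95% intervals. SPRY1 differs most, at 3.05 in the double minus the ANKRD52 knockout, and SPRED2 lies below 0 in both panels of the double.

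The error of a gene sets which change could be seen. The approximate SE of the log2 fold change was widest for SPRY4, at 0.31, followed by DUSP6 at 0.27, SPRY1 at 0.25 and ETV4 at 0.21, and it was smallest for SPRED2 at 0.10. DUSP6 had a wider SE than 95.4% of the 326 genes within 0.5 of its mean log2 CPM. SPRY4 had a wider one than 98.5% of 1690 such genes and ETV4 than 93.3% of 2460. SPRED2, with a smaller SE than most of its like, was called at a 1.21-fold change, while SPRY4 was not called at 1.46-fold.

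**Figure D4:**
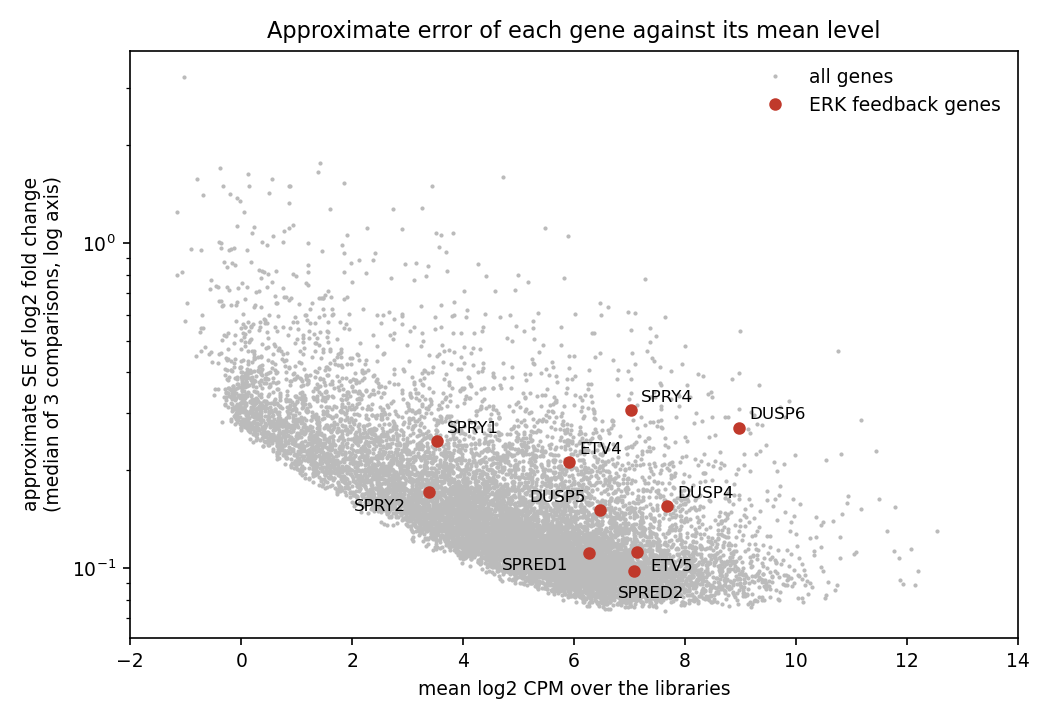
Approximate SE of the log2 fold change, on a log axis, against the mean log2 CPM of all genes (grey) and the ERK feedback genes (red). SPRY4 at 0.31 and DUSP6 at 0.27 lie near the upper edge for their level, and SPRED2 at 0.10 lies among genes of like level.

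Several other genes of the pathway changed in the same knockouts. SPRED3, the remaining SPRED gene, rose by 0.98 in the double (adjusted p = 0.000110) and by 1.004 in the ANKRD52 knockout (adjusted p = 0.000465) in the authors' deposited tables. Of 7 other MAP kinase phosphatases, 3 rose and 1 fell in the double, 0 rose and 1 fell in the ANKRD52 knockout, and 0 were called in the AGO2 knockout. Of all genes, 22.9% were called higher and 20.1% lower in the double. The shares were 7.62% and 6.04% in the ANKRD52 knockout and 3.38% and 2.72% in the AGO2 knockout. DUSP10, which acts on p38 and JNK, rose by 0.87 in the double (adjusted p = 0.00294) in the authors' deposited table. DUSP8, another phosphatase of p38 and JNK, rose by 0.43 in the double (adjusted p = 0.00141) and had -0.55 in the ANKRD52 knockout (adjusted p = 0.000311) in the authors' deposited tables, the same directions as SPRY1. DUSP2, a nuclear phosphatase of ERK, had -0.80 in the double (adjusted p = 0.00506) in the authors' deposited table.

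Among 8 other ERK output genes listed, 4 rose in the double, 0 in the ANKRD52 knockout and 2 in the AGO2 knockout, and 0 fell in any of them. The shares of all genes called higher there were 22.9%, 7.62% and 3.38%, and those called lower were 20.1%, 6.04% and 2.72%. CCND1, which encodes cyclin D1 and is also a target of Wnt signalling, rose by 1.88 in the double (adjusted p = 6.12e-09) in the authors' deposited table. EPHA2, a receptor tyrosine kinase, rose by 1.14 in the double (adjusted p = 5.69e-08) and by 0.59 in the AGO2 knockout (adjusted p = 0.0405) in the authors' deposited tables. PHLDA1, a target of RAF and MEK activity, rose by 0.42 in the double (adjusted p = 0.000539) in the authors' deposited table. EPHA4, named after its value was seen to complete the 4, had 0.97 there (adjusted p = 0.00337) in the authors' deposited table. FOSL1, a FOS family factor, rose by 0.77 in the AGO2 knockout (adjusted p = 0.000558) and was not called in the double at 0.37 (adjusted p = 0.0591) in the authors' deposited tables. The list median in the double was 0.41, close to the 0.42 of the feedback genes. Of 6 other ETS factors, 0 rose and 1 fell in the double, and 1 rose and 0 fell in each of the ANKRD52 and AGO2 knockouts. The list median was -0.37 in the double, 0.25 in the ANKRD52 knockout and 0.12 in the AGO2 knockout. ELK4, a partner of serum response factor, rose by 0.51 in the ANKRD52 knockout (adjusted p = 0.000320) and by 0.34 in the AGO2 knockout (adjusted p = 0.0447) in the authors' deposited tables, and was not called in the double at 0.03 (adjusted p = 0.828). ELK1, of the same subfamily, had -0.34 in the double (adjusted p = 0.000200) in the authors' deposited table, against 1.13 for ETV4. ELK3 was at -0.51 (adjusted p = 0.0851) and ETS2 at -0.50 (adjusted p = 0.118) there in the authors' deposited table, not called.

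Of 17 genes of the RAS to ERK cascade, 2 rose and 1 fell in the double, 4 rose and 1 fell in the ANKRD52 knockout, and 2 rose and 0 fell in the AGO2 knockout. In the same order, 22.9%, 7.62% and 3.38% of all genes were called higher and 20.1%, 6.04% and 2.72% lower. NRAS rose in all 3, by 0.21, 0.37 and 0.26 in the authors' deposited tables of the double, ANKRD52 and AGO2 knockouts. SOS2, an activator of RAS, rose by 0.33 in the double (adjusted p = 0.0153) and 0.44 in the ANKRD52 knockout (adjusted p = 0.00432) in the authors' deposited tables. BRAF rose by 0.49 in the AGO2 knockout (adjusted p = 0.0163) in the authors' deposited table. MAPK3, which encodes ERK1, had -0.29 in the double (adjusted p = 0.00369) in the authors' deposited table. Among 6 RAS GTPase activating proteins, 2 rose and 1 fell in the double, 1 rose in the ANKRD52 knockout and 0 were called in the AGO2 knockout. RASA3 had -0.84 in the double (adjusted p = 4.89e-13) and DAB2IP rose there by 0.63 (adjusted p = 2.10e-09) in the authors' deposited table. RASA2 rose by 0.57 in the ANKRD52 knockout (adjusted p = 0.0151) in the authors' deposited table. NF1, the partner of the SPRED proteins, rose by 0.53 in the double (adjusted p = 1.15e-05) in the authors' deposited table, while SPRED1 and SPRED2 were not called there.

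Of 6 kinases that ERK activates, 1 rose and 1 fell in the double, 0 rose and 1 fell in the ANKRD52 knockout, and 1 rose in the AGO2 knockout. In the same order, 22.9%, 7.62% and 3.38% of all genes were called higher and 20.1%, 6.04% and 2.72% lower. RPS6KA5, the kinase MSK1, had -2.38 in the double (adjusted p = 1.24e-32) and -0.79 in the ANKRD52 knockout (adjusted p = 0.000407) in the authors' deposited tables. MKNK1, a kinase of the translation factor eIF4E, rose by 0.87 in the double (adjusted p = 2.89e-11) and its relative MKNK2 by 0.33 in the AGO2 knockout (adjusted p = 0.0448) in the authors' deposited tables. Of 10 growth factor receptors, 1 rose and 5 fell in the double, where 22.9% of all genes were called higher and 20.1% lower, and 1 rose in each of the other knockouts. AXL, a receptor tyrosine kinase, had -1.28 in the double (adjusted p = 8.09e-23), 0.50 in the ANKRD52 knockout (adjusted p = 0.00101) and 0.69 in the AGO2 knockout (adjusted p = 5.60e-06) in the authors' deposited tables. MET, the receptor of hepatocyte growth factor, had -0.90 in the double (adjusted p = 0.00331) in the authors' deposited table. ERBB2 rose by 0.38 in the double (adjusted p = 0.000956) and FGFR4 had -0.51 there (adjusted p = 0.00107) in the authors' deposited table. The receptor list had a median of -0.24 in the double.

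**Figure D5:**
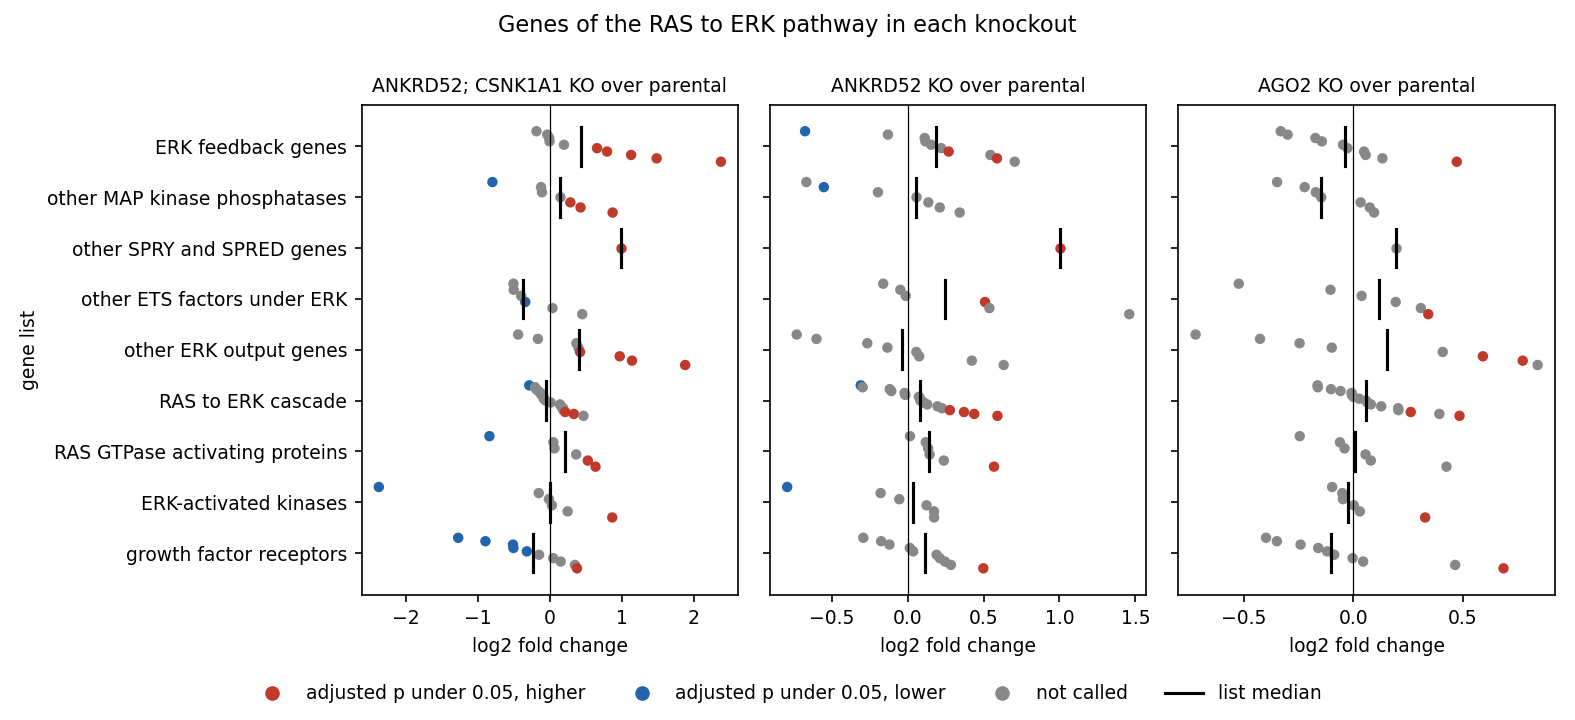
Log2 fold change over the parental line of the ERK feedback genes and of each pathway list in the ANKRD52; CSNK1A1, ANKRD52 and AGO2 knockouts, 1 point for each gene and a bar for the list median, with a separate scale in each panel. In the double knockout the feedback genes have a median of 0.42 and the growth factor receptors one of -0.24.

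By the distance of their 3 log2 fold changes over the 11876 other genes whose mean log2 CPM reached 1, the 5 genes most like SPRY1 were ARHGDIB, SULT2B1, SLC1A3, KLK7 and PDGFA, at distances from 0.157 to 0.393. The measure covers 3 comparisons that share the parental libraries. ARHGDIB had 2.36 in the double (adjusted p = 1.53e-08), -0.67 in the ANKRD52 knockout (adjusted p = 0.259) and 0.01 in the AGO2 knockout (adjusted p = 0.990) in the authors' deposited tables. SULT2B1, a sterol sulfotransferase, had 2.54 in the double (adjusted p = 6.60e-17), SLC1A3, a glutamate transporter, 2.16 (adjusted p = 7.11e-11) and KLK7, a kallikrein protease, 2.14 (adjusted p = 0.000888) in the authors' deposited table. PDGFA, a growth factor, had 2.37 in the double (adjusted p = 8.96e-09) in the authors' deposited table. The 5 genes were picked by these same values, so their likeness to SPRY1 in each knockout follows from the choice. All 5 were called higher in the double and none in the ANKRD52 or AGO2 knockout. In the ANKRD52 knockout all 5 nevertheless lay below 0. SLC1A3 had -0.77 (adjusted p = 0.0650), SULT2B1 -0.59, KLK7 -0.57 and PDGFA -0.29 there in the authors' deposited table, against -0.68 for SPRY1.

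Markers of colon epithelium also rose in the double knockout. Of 7 listed, 6 rose and 0 fell in the double, 0 rose and 2 fell in the ANKRD52 knockout, and 0 were called in the AGO2 knockout. In the same order, 22.9%, 7.62% and 3.38% of all genes were called higher and 20.1%, 6.04% and 2.72% lower. The summed implied level of the 7 markers was 8697 CPM in the double, 3182 CPM in the ANKRD52 knockout and 3421 CPM in the AGO2 knockout, against 3316 CPM in the parental line. Most of the sum in the double was KRT8 (4412 CPM), KRT18 (1811 CPM) and KRT19 (1601 CPM). EPCAM was not called in the double, at 0.13 (adjusted p = 0.596; the authors' deposited table). The 2 that fell in the ANKRD52 knockout were EPCAM and CDH1. CDX1 is not listed, and VIL1 was near 0 in all groups but the double. Of 8 markers of other cell types, 3 are listed, of which 2 rose in the double and 0 were called in the ANKRD52 or AGO2 knockout. Their summed level was 25.2 CPM in the double, 13.4 CPM in the ANKRD52 knockout and 13.2 CPM in the AGO2 knockout, against 12.6 CPM in the parental line. In the double, most of that sum was COL1A1, which was not called there at 0.24 (adjusted p = 0.281; the authors' deposited table). LYZ, lysozyme, had an implied 8.63 CPM in the double, against 0.0788 CPM in the parental line, and was called higher in the authors' deposited table (adjusted p = 1.27e-12). VWF, an endothelial marker, rose there by 2.25 (adjusted p = 1.61e-11) in the authors' deposited table. The defining markers of leukocytes and endothelium, PTPRC, CD3E and PECAM1, are not listed in the tables. The part of these markers in the rise of the feedback genes was not tested. The 40 listed genes nearest to each feedback gene had median log2 fold changes between -0.05 and 0.24 over the 3 knockouts, and those around SPRY1 and DUSP6 in the double had 0.13 and 0.24.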

How the data were processed

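Per the labels' protocols, stranded polyA libraries were run on a kit of 75 cycles. TopHat2 2.0.12, featureCounts 1.4.6, edgeR 3.8.6 and build hg19 are named in the submitters' processing notes, without their roles. The deposited tables hold, per the file headers, the authors' log2 fold change, mean log2 CPM, likelihood ratio score, p-value and adjusted p-value. For all 12756 genes a check found each p-value to be the chi-square tail of its likelihood ratio (1 degree of freedom) and each adjusted one its Benjamini-Hochberg value. Depths are unknown here, and tests foreseen for counts gave way to these tables.

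A standard error was taken as the size of a log2 fold change divided by the root of its likelihood ratio, with 95% intervals of 1.96 SE. Knockouts were compared by subtracting their log2 fold changes. The variance was the average of both squared SEs, since the parental level drops out if variances are equal, and the normal test was adjusted over all genes. Alternatives were other thresholds, filters, centring, an F or t distribution with 8 residual degrees of freedom, and summed variances.

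The members and the gene lists were chosen with earlier results of these data known. Named were all members, the targeted genes, up to 4 genes per list with the smallest p, and the 5 genes of a pattern most like SPRY1, the member with the longest vector of fold changes. Positions, 3' UTRs (of at least 50 bases) and exon lengths are from GENCODE release 29 (GRCh38), which is not the authors' build, and promoters and microRNAs from RefSeq. Python 3.11.15, numpy 2.4.6, pandas 2.3.3, scipy 1.17.1 and matplotlib 3.10.9 were used.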

Additional observations from a re-analysis of the deposited data

How the results depend on the processing

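The 5 calls in the double knockout over the parental line were kept in all 5 alternatives run. Over the 6 comparisons 20 of 60 values of single feedback genes were called. Over the alternatives these 20 gave 111 values, of which 90 kept the call, 21 lost it and 0 changed direction. The 219 values of those not called stayed uncalled. In the AGO2 knockout 1 feedback gene was called, and 0 at an adjusted p under 0.01, 0 with a log2 fold change of at least 0.5 and 0 with an F distribution, where edgeR's likelihood ratios gave 1 feedback gene and 2735 genes an unadjusted chi-square p under 0.05. In the ANKRD52 knockout 3 were called, against 1 at an adjusted p under 0.01 and 0 with an F distribution. The F distribution called 3784, 3 and 0 of all genes in the double, ANKRD52 and AGO2 knockouts, against 5486, 1742 and 778. Of the 5 feedback genes that differed between the double and the ANKRD52 knockout, 3 were called with summed variances and 3 with a t distribution. Between the ANKRD52 and AGO2 knockouts both settings gave 0 in place of 1, and called 99 and 0 of all genes in place of 1189, with 2956 at an unadjusted p under 0.05 in the normal test. At an adjusted p under 0.01, lists gave in the AGO2 knockout 0 other ETS factors, 1 other ERK output gene, 0 genes of the RAS to ERK cascade and 0 kinases that ERK activates. They gave in the ANKRD52 knockout 2 cascade genes and 0 RAS GTPase activating proteins, and in the double 1 cascade gene. Over all genes, an adjusted p under 0.01 called 874 in the ANKRD52 and 274 in the AGO2 knockout, and a log2 fold change of at least 0.5 left 3043, 836 and 378 in the double, ANKRD52 and AGO2 knockouts. For the double minus the ANKRD52 knockout, 4371 genes became 2497 with that fold minimum, 2138 with summed variances and 2643 with a t distribution. For the double minus the AGO2 knockout, 5394 became 2997 and 2833 with the fold minimum and summed variances. For the ANKRD52 minus the AGO2 knockout, 1189 became 555 at an adjusted p under 0.01 and 613 with the fold minimum. A stricter threshold and a wider error lower counts by construction.

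No paired analysis was possible because values of single libraries were not used here, and for the same reason no library was left out in turn. Whether 1 library carries a result was therefore not tested. The depth behind each value is unknown.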
